A study of Mus musculus with 12 samples.

Results

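The unfolded protein response and the integrated stress response were followed through 34 genes in mouse peritoneal macrophages exposed to apolipoprotein A-I (apoA-I), which carries cholesterol out of cells on high-density lipoprotein. The genes are a set of stress genes chosen by name, with earlier results of these data known. They were matched to array probes by the gene name in the scanner files or an older alias. All 34 were found, among 27666 named genes on the array, through 56 probes. They were divided into an ATF4 branch of 14 genes, a chaperone branch of 16 genes, and a group of 4 holding the sensors Ern1, Eif2ak3 and Atf6 with the transcription factor Xbp1. All 34 passed the filter on dim probes and were well above background on all 12 arrays. The array design does not distinguish spliced from unspliced Xbp1, nor the cleaved form of Atf6.

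RNA was measured on 12 one-colour Agilent arrays, 3 in each of 4 groups, from female mice aged 10 weeks. The groups were C57BL/6 control, C57BL/6 with apoA-I, MyD88-/- (MyD88-null) control and MyD88-/- with apoA-I; MyD88 is the adaptor of most Toll-like receptors. The cells of every group, controls included, had been drawn to the peritoneum by thioglycollate for 96 h, plated, loaded overnight with 10 µg/ml cholesterol, and moved to medium with 25 µg/ml polymyxin B, an antibiotic that binds endotoxin; the treated groups then received 10 µg/ml apoA-I for 2 h. No sorting step is described, and the sources used here do not give the number of mice behind a sample. Each of the 3 replicate experiments held 1 sample of each group, and whether experiments used separate mice is not stated, so a p-value covers only the spread among these arrays, which may be technical. The levels below are log2 intensities relative to the array's own 75th percentile; they rank samples within a gene and cannot be compared between genes.

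Unfolded proteins in the endoplasmic reticulum activate the sensors PERK (encoded by Eif2ak3), IRE1 (Ern1) and ATF6. PERK, like other kinases of the translation factor eIF2, slows protein synthesis while favouring translation of ATF4, which turns on genes of amino acid supply, redox balance and cell fate. IRE1, through splicing of Xbp1 messenger RNA, and ATF6 raise the chaperones, folding enzymes and degradation machinery of the endoplasmic reticulum. Because amino acid shortage, haem shortage and viral RNA also feed into ATF4, the ATF4 genes can move without the chaperones. In cholesterol-loaded macrophages the unfolded protein response has been studied as a link between sterol excess and cell death.

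The promoter sequences of the genes that the results turn on are shown because ATF4 and the ATF6 and XBP1 factors bind different DNA elements. The branches themselves were chosen by gene name, with earlier results of these data known. Windows from 250 bases before to 50 bases after the annotated start were taken from RefSeq (GRCm38.p6), and 32 of the 34 genes had one; Manf and Atf6 did not. The C/EBP-ATF response element (CARE), to which ATF4 binds with a C/EBP partner, was searched on both strands as TGATGNAAN. It was found in 4 of 14 ATF4-branch genes (Chac1, Nupr1, Asns and Trib3) and in 1 of 15 chaperone-branch genes (Herpud1), against 4.5% of all 27025 genes with a window. The capitals mark CARE matches, in stretches upstream of the start, 5′ to 3′ on the gene's strand. For Nupr1 the stretch is chr7:126625533-126625621 on the minus strand, for Chac1 chr2:119351008-119351096 on the plus strand, for Herpud1 chr8:94386276-94386364 on the plus strand and for Asns chr6:7693210-7693272 on the minus strand.
Nupr1: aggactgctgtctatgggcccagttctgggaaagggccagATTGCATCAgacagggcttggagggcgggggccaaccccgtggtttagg
Chac1: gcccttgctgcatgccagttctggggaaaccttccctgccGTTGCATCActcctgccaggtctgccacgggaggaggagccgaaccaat
Herpud1: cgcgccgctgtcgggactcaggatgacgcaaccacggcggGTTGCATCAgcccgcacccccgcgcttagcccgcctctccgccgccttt
Asns: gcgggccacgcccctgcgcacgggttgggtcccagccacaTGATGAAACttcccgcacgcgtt

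The endoplasmic reticulum stress element (ERSE), which ATF6 and XBP1 bind together with NF-Y, was searched on both strands as CCAAT and CCACG with any 9 bases between them. It was found in 7 of 15 chaperone-branch genes (Hspa5, Hsp90b1, Calr, Canx, Dnajc3, Pdia6 and Syvn1), in 0 of 14 ATF4-branch genes, and in 0.137% of all genes with a window. The Hsp90b1 window held 2 matches, 1 on each strand. The capitals mark ERSE matches, in stretches at chr2:34771985-34772083 (Hspa5, plus strand), chr10:86705493-86705694 (Hsp90b1, minus strand), chr14:118937787-118937885 (Dnajc3, plus strand) and chr19:6046492-6046575 (Syvn1, plus strand).
Hspa5: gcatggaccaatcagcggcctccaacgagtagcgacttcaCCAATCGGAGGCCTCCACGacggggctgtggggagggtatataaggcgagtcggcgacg
Hsp90b1: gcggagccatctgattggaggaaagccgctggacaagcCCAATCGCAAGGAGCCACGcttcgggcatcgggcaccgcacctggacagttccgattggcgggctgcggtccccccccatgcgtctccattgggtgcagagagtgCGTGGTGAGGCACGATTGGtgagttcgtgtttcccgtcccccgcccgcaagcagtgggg
Dnajc3: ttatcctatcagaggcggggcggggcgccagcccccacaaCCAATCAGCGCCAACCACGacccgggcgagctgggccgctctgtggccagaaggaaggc
Syvn1: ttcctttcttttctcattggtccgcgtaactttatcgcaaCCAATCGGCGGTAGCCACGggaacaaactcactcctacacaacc

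Nupr1, Chac1, Herpud1, Asns and Trib3 held a CARE match and no match to the ERSE pattern searched. Their log2 changes in C57BL/6 cells were 1.82, 1.44, 0.89, 0.67 and 0.17. Ddit4 and Ppp1r15a, with changes of 1.03 and 1.08, held neither. Nor did Sesn2, Mthfd2, Phgdh and Atf4, at 0.63, 0.60, 0.50 and 0.46, each above Trib3. Shmt2, Ddit3, Psat1 and Atf5, at 0.35, 0.23, 0.0076 and -0.0030, also held neither. Other forms of the ERSE were not searched. Hspa5 also held a TGACGTGN match, the UPR element (2.22% of all genes), and Ppp1r15a a TGACGTCA match, the cyclic AMP response element (2.03% of all genes). The map of matches by distance from the start shows that the CARE matches of Chac1, Nupr1 and Herpud1 lay between positions -194 and -103, while that of Trib3 lay at positions 14 to 22, after the start. A loose kappaB pattern, GGG and CC with any 5 bases between them, was found in 7 of 14 ATF4-branch genes, 9 of 15 chaperone-branch genes and 3 of 3 of the remaining genes, against 53.5% of all genes. These elements were also searched on both strands. A match describes letters in a window and does not show that a factor bound there.

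**Figure D1:**
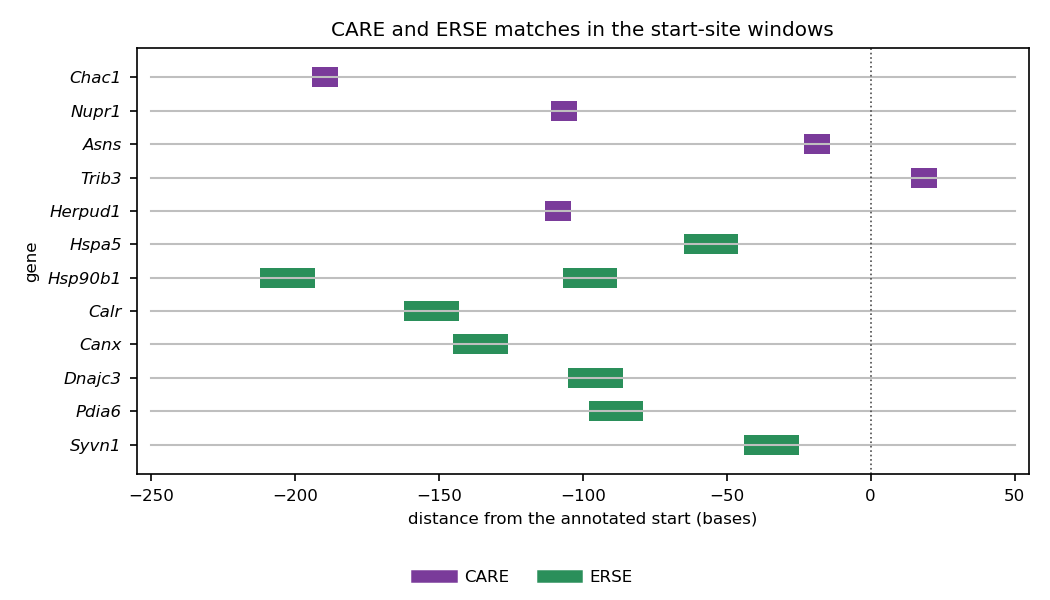
Position of CARE (purple) and ERSE (green) matches, in bases from the annotated start (dotted line), in the windows of the 12 genes that held one; grey lines span the window searched. CARE matches were found in 4 ATF4-branch genes and Herpud1, and ERSE matches in 7 chaperone-branch genes.

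The 8 macrophage markers examined, among them Adgre1, Csf1r and Cd68, were well above background on all 12 arrays. The probe for Myd88 gave log2 levels of 2.96 to 3.49 in C57BL/6 controls and 1.39 to 2.10 in MyD88-null controls, and of 3.41 to 4.30 and 2.43 to 3.25 with apoA-I. The genotypes did not overlap at either treatment, but the treated MyD88-null array of experiment 2, at 3.25, lay above the C57BL/6 control array of experiment 3, at 2.96. Whether the probe lies in the deleted part was not established here. Signal differed between arrays: the 75th percentile of intensity was lowest, 199.5, on the MyD88-null array with apoA-I of experiment 1 and highest, 1408, on the C57BL/6 control array of experiment 3, and 57.56% to 73.64% of probes were well above background, the highest share being on the dimmest array. For the C57BL/6 control and the apoA-I-treated MyD88-null sample of experiment 2, the free-text description and the title contradict each other on whether apoA-I was added; the titles, which the source names share, were followed here.

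After 2 h of apoA-I in C57BL/6 cells, 2 of the 34 genes rose and none fell: Nupr1, a small stress-induced chromatin protein, and Chac1, an enzyme that degrades glutathione. Both belong to the ATF4 branch. Nupr1 rose 3.52-fold and Chac1 2.72-fold. Of the 16740 genes tested, 0.812% were called higher and 0.0179% lower in this comparison by limma at an adjusted p under 0.05. No chaperone-branch gene and no sensor passed. At an unadjusted p under 0.05, 3 of the 34 were higher and 0 lower, against 4.26% and 3.14% of all genes.

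In MyD88-null cells, the same 2 genes rose with apoA-I, Nupr1 4.56-fold and Chac1 2.89-fold, and none of the 34 fell. Of all genes, 1.13% were called higher and 0.0119% lower. At an unadjusted p under 0.05, 4 of the 34 were higher and 1 lower, against 5.94% and 2.71% of all genes. The difference between the genotypes' responses was tested directly, and it passed for 0 of the 34 genes by limma, as for 0% of all 16740 genes; none of the 34 passed an unadjusted p of 0.05, which 1.17% of all genes did.

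Nupr1 (probe at mm7 chromosome 7, 122720022 to 122720081) had log2 levels of 2.98, 3.03 and 2.73 in the C57BL/6 controls of experiments 1, 2 and 3, and 4.55, 4.90 and 4.73 with apoA-I. In MyD88-null cells the levels were 1.74, 2.53 and 2.63 in controls and 4.29, 4.58 and 4.59 after treatment. Every treated array lay above every control array, of either genotype. The log2 change was 1.82 (SE 0.254, adjusted p = 0.00708, limma) in C57BL/6 and 2.19 (SE 0.254, adjusted p = 0.00135, limma) in MyD88-null cells. The responses differed by 0.37, with a 95% interval of -0.43 to 1.17.

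Chac1 (mm7 chromosome 2, 119095103 to 119095162) had levels of 1.93, 2.38 and 2.04 in C57BL/6 controls and 3.29, 4.01 and 3.38 with apoA-I. In MyD88-null cells 1.75, 1.41 and 1.41 in controls stood against 2.85, 3.28 and 3.04 in treated samples. Again no control array reached a treated array. The log2 change was 1.44 (SE 0.244, adjusted p = 0.0256, limma) in C57BL/6 and 1.53 (SE 0.244, adjusted p = 0.0117, limma) in MyD88-null cells, a difference of 0.09 with a 95% interval of -0.68 to 0.85.

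These calls rested on few arrays. The Chac1 call in C57BL/6 was lost without any 1 of C57BL/6 control replicates 1, 2 or 3, C57BL/6 apoA-I replicates 2 or 3, or MyD88-null control replicate 2 (adjusted p = 0.0502 to 0.113, limma), and in MyD88-null cells without control replicate 2 or 3 or apoA-I replicate 2 (adjusted p = 0.0546 to 0.0673, limma). The Nupr1 call in C57BL/6 was lost when the treated C57BL/6 array of experiment 2 was removed (adjusted p = 0.0551, limma). With both samples whose descriptions conflict left out, only Nupr1 in MyD88-null cells still passed; the log2 changes were then 1.87 and 1.57 for Nupr1 and Chac1 in C57BL/6 cells (adjusted p = 0.0753 and 0.0940, limma) and 1.42 for Chac1 in MyD88-null cells (adjusted p = 0.104, limma). Taking the treatment of those samples from the descriptions left none of the 34 called, with log2 changes between 0.98 and 1.57 for both genes.

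Herpud1, which organises the complex that degrades misfolded proteins of the endoplasmic reticulum, stood apart from the rest of the chaperone branch. Its levels (mm7 chromosome 8, 92984261 to 92984320) stood at 2.88, 2.98 and 3.57 in C57BL/6 controls, against 3.74, 4.08 and 4.29 in treated cells. In MyD88-null cells 2.01, 2.09 and 2.81 stood against 2.70, 3.50 and 3.81. The C57BL/6 groups did not overlap, and the MyD88-null groups did. The treated sample was higher in all 6 control-treated pairs of an experiment, as for 11.6% of all genes. The log2 changes of 0.89 (SE 0.345) and 1.03 (SE 0.345) did not pass (adjusted p = 0.529 and 0.333, limma). With the experiment as a block they passed in both genotypes (adjusted p = 0.0344 and 0.0164, limma), a fit in which 2.37% of all genes were called higher in C57BL/6 and 3.43% in MyD88-null cells.

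**Figure D2:**
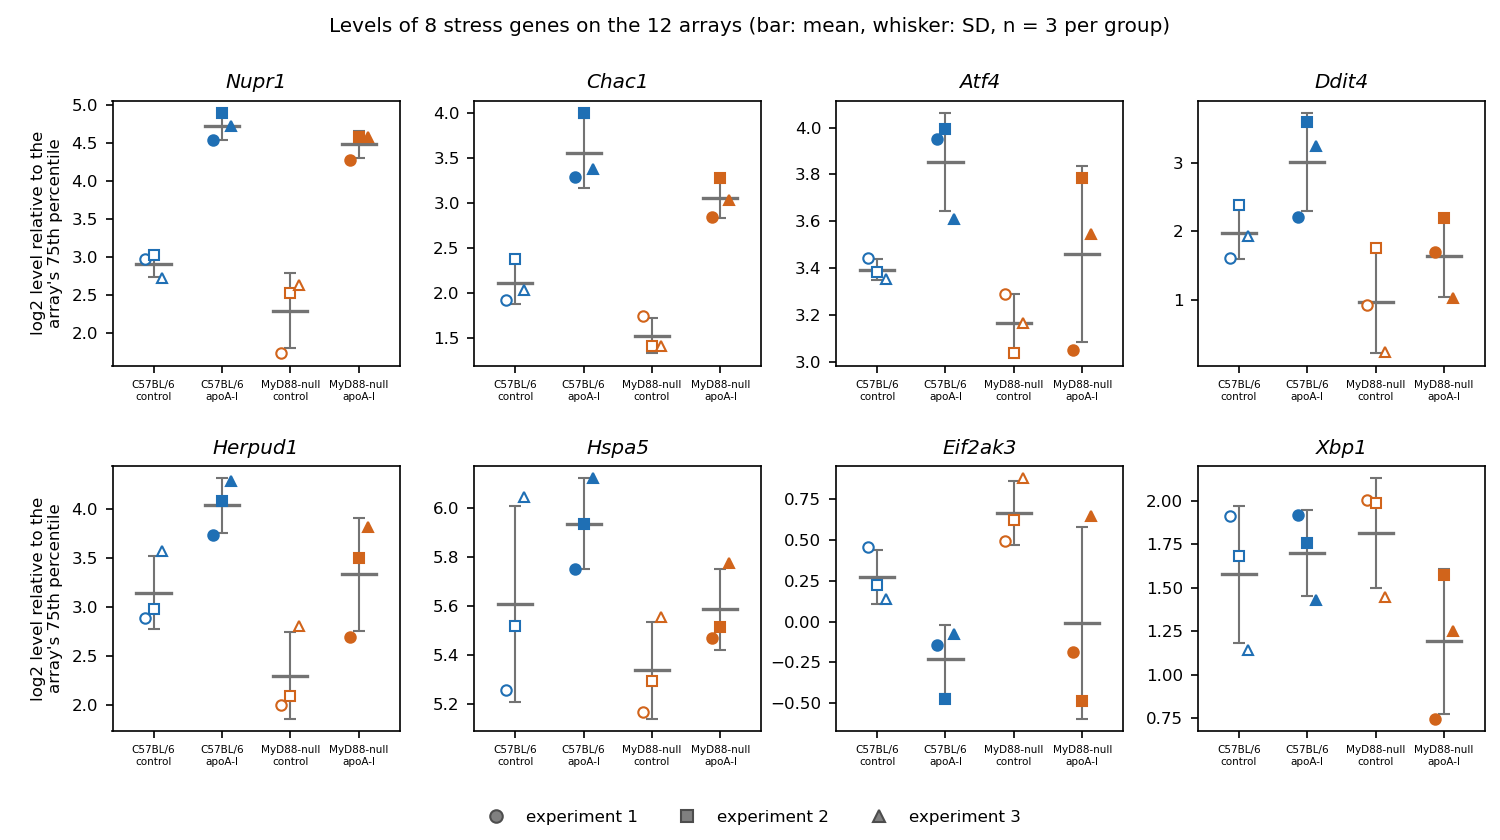
Log2 level relative to the array's 75th percentile for 8 genes on all 12 arrays; open symbols are controls, filled symbols apoA-I, blue C57BL/6, orange MyD88-null, the marker shape gives the experiment, and grey bars and whiskers give the mean and SD of the 3 arrays. Nupr1 and Chac1 show no overlap between control and apoA-I arrays, whereas the Hspa5 and Xbp1 ranges overlap; each panel has its own axis.

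Across the 14 ATF4-branch genes, the median log2 change with apoA-I was 0.55 in C57BL/6 and 0.41 in MyD88-null cells, beside -0.0018 and 0.052 over all genes. It was positive for 13 of 14 genes in each genotype. Taken singly, 11 of the 14 were higher and 0 lower in all 3 C57BL/6 experiments, against 24.1% and 23.5% of all genes. In all 3 MyD88-null experiments 10 were higher and 0 lower, against 29.3% and 21.9% of all genes. By experiment the branch median was 0.41, 0.60 and 0.52 in C57BL/6 and 0.48, 0.48 and 0.44 in MyD88-null cells. Of the 14, 9 were higher with apoA-I in all 3 experiments of both genotypes (Nupr1, Chac1, Ddit4, Ppp1r15a, Asns, Sesn2, Trib3, Shmt2 and Mthfd2), as were 11.6% of all genes. The branch genes share the same arrays and are not independent of each other. They were chosen with earlier results of these data known, so the counts and medians are descriptions only.

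Among the transcription regulators of this branch, the change of Atf4 itself was 0.46 (SE 0.219) in C57BL/6 and 0.30 (SE 0.219) in MyD88-null cells. Its levels were 3.44, 3.39 and 3.35 in C57BL/6 controls and 3.95, 4.00 and 3.61 with apoA-I, so these groups did not overlap; in MyD88-null cells 3.29, 3.04 and 3.17 stood against 3.05, 3.79 and 3.55, which did. Ddit3, encoding the pro-apoptotic factor CHOP, had changes of 0.23 (SE 0.225) and -0.06 (SE 0.225), and Atf5, another factor under translational control, -0.0030 (SE 0.389) and 0.29 (SE 0.389). Neither gene separated treated from control arrays in either genotype. The 95% intervals for Ddit3 were -0.27 to 0.73 and -0.55 to 0.44, which hold no change and changes in both directions.

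The stress effectors and feedback genes were positive in all 5 cases in both genotypes, from 0.17 to 1.44 in C57BL/6 and from 0.43 to 1.53 in MyD88-null cells. Ddit4, an inhibitor of mTORC1, had levels of 1.62, 2.38 and 1.93 in C57BL/6 controls and 2.21, 3.58 and 3.24 in treated cells. The MyD88-null values were 0.92, 1.75 and 0.25 against 1.69, 2.19 and 1.02. Its changes of 1.03 (SE 0.477) and 0.66 (SE 0.477) were positive in each experiment but did not pass, and control and treated ranges overlapped in both genotypes.

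Ppp1r15a, encoding the phosphatase subunit GADD34 that restores translation, was measured at 2.29, 1.57 and 1.48 in C57BL/6 controls and at 3.95, 2.57 and 2.04 with apoA-I. In MyD88-null cells the values were 2.27, 1.34 and 0.59 against 2.94, 2.07 and 0.94. Levels were highest in experiment 1 in all 4 groups, and control and treated ranges overlapped in both genotypes. The changes of 1.08 (SE 0.633) and 0.58 (SE 0.633) were positive in all 3 experiments but did not pass. With the experiment as a block the C57BL/6 value came to an adjusted p of 0.0506 (limma).

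Sesn2, a stress-induced regulator of amino acid sensing, and Trib3, a pseudokinase that restrains ATF4 signalling, separated treated from control arrays in MyD88-null cells alone. Sesn2 stood at 3.28, 3.06 and 3.61 in MyD88-null controls and 4.03, 3.80 and 4.28 with apoA-I, with changes of 0.63 (SE 0.371) in C57BL/6 and 0.72 (SE 0.371) in MyD88-null cells. Trib3 stood at 2.42, 2.32 and 2.27 against 2.70, 2.83 and 2.75, with changes of 0.17 (SE 0.177) and 0.43 (SE 0.177). The dimmer Trib3 probe gave 0.25 and 0.11, so its genotype difference, -0.14, had the opposite sign. The difference between genotypes did not pass for either gene (0.08 with a 95% interval of -1.08 to 1.25, and 0.26 with -0.30 to 0.82).

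The enzymes of amino acid and one-carbon synthesis were all 5 positive in both genotypes, none past the threshold. Asns, asparagine synthetase, had the largest value of these in C57BL/6 cells, 0.67 (SE 0.317), with 0.38 (SE 0.317) in MyD88-null cells. Its levels were 4.00, 4.52 and 3.71 in C57BL/6 controls and 4.31, 5.11 and 4.82 with apoA-I. The mitochondrial folate enzyme Mthfd2 gave 0.60 (SE 0.370) and 0.72 (SE 0.370), neither passing; its MyD88-null control levels of 1.07, 1.04 and 1.66 did not overlap the treated levels of 1.95, 1.91 and 2.07. For the serine pathway, Phgdh gave 0.50 and 0.39 (SE 0.354 each), Shmt2 0.35 and 0.13 (SE 0.252 each) and Psat1 0.0076 and 0.11 (SE 0.295 each).

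**Figure D3:**
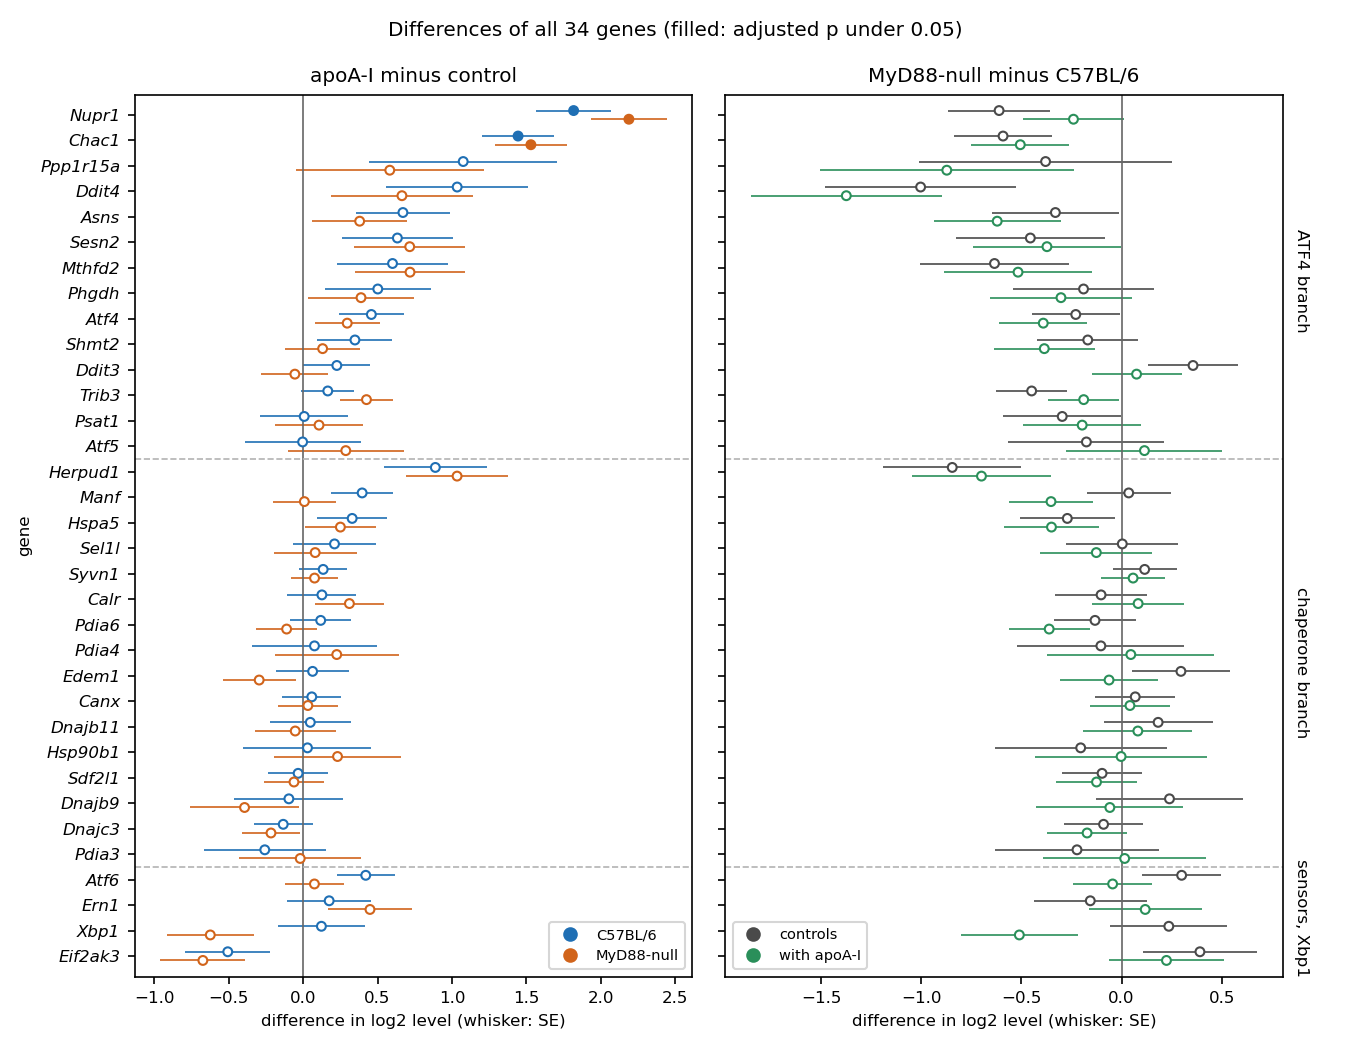
Differences in log2 level for all 34 genes, ordered within each branch by the C57BL/6 response; the left panel gives apoA-I minus control in each genotype and the right panel MyD88-null minus C57BL/6 in controls and with apoA-I, with whiskers for the SE. Filled points, at Nupr1 and Chac1 in the left panel, passed an adjusted p of 0.05 (limma); 13 of 14 ATF4-branch genes lie right of zero in each response.

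In the chaperone branch the median change was 0.07 in C57BL/6 and 0.02 in MyD88-null cells, close to the medians over all genes. The C57BL/6 median turned to -0.088 under quantile normalization, where that over all genes was -0.087, and to -0.011 with slide as a random block. In MyD88-null cells it turned to -0.061 under quantile normalization, -0.048 with normexp, -0.025 with slide as a random block and -0.0052 with the mean of a gene's probes; leaving out single arrays also turned it in both genotypes (lowest -0.012 and -0.12). The difference between the ATF4 and chaperone medians was 0.48 in C57BL/6 and 0.39 in MyD88-null cells. With treatment taken from the descriptions it was 0.32 and 0.11, the MyD88-null ATF4 median being 0.21, and without the MyD88-null control array of experiment 3 the MyD88-null difference was 0.22. Without the treated C57BL/6 array of experiment 2 the C57BL/6 difference was 0.32. The branch medians by experiment show the ATF4 branch above the chaperone branch in each of the 6 control-treated pairs, the chaperone medians running from -0.0078 to 0.17 in C57BL/6 and from -0.17 to 0.11 in MyD88-null cells.

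**Figure D4:**
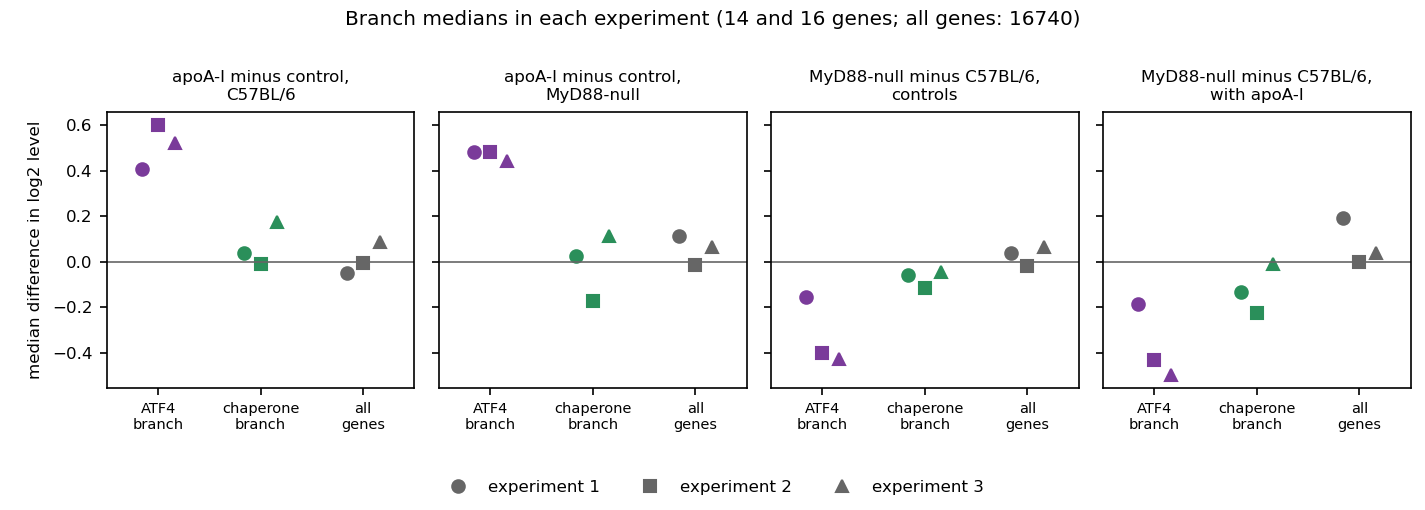
Median difference in log2 level over the ATF4 branch (purple, 14 genes), the chaperone branch (green, 16 genes) and all 16740 genes (grey), computed within each experiment (marker shape) for the 2 responses to apoA-I and the 2 genotype differences. The ATF4-branch median was positive in all 6 responses, from 0.41 to 0.60, and negative in all 6 genotype differences.

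Among chaperones and cochaperones, Hspa5, the central chaperone BiP, had levels of 5.26, 5.52 and 6.05 in C57BL/6 controls and 5.75, 5.94 and 6.12 in treated cells. In MyD88-null cells it had 5.16, 5.29 and 5.55 against 5.47, 5.51 and 5.78. The treated sample was higher in each of the 6 pairs, as for 11.6% of all genes. The ranges overlapped, and the changes of 0.33 (SE 0.237) and 0.25 (SE 0.237) did not pass. The 95% intervals, -0.20 to 0.86 and -0.28 to 0.78, leave out a doubling of BiP messenger RNA at 2 h, which would be 1 on this scale.

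The luminal HSP90 chaperone Hsp90b1 gave 0.03 (SE 0.430) and 0.23 (SE 0.430), with intervals of -0.93 to 0.98 and -0.72 to 1.19. Its dimmer probe gave -0.08 and 0.23. The BiP cochaperones Dnajb9, Dnajb11 and Dnajc3 gave -0.10, 0.05 and -0.13 in C57BL/6 and -0.39, -0.05 and -0.22 in MyD88-null cells. Dimmer probes of Dnajb9 gave 0.16 and 0.15 in C57BL/6 and -0.51 and -0.38 in MyD88-null cells. Sdf2l1, a cofactor of Dnajb11, gave -0.03 and -0.06. Manf, a secreted stress protein, gave 0.40 (SE 0.210) in C57BL/6, where its groups did not overlap, and 0.01 (SE 0.210) in MyD88-null cells. That genotype difference, -0.39, had a 95% interval of -1.05 to 0.27.

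The lectin chaperones Calr and Canx gave 0.13 and 0.06 in C57BL/6 and 0.31 and 0.03 in MyD88-null cells. The disulfide isomerases ran from -0.26 (Pdia3) to 0.12 (Pdia6) in C57BL/6 and from -0.11 (Pdia6) to 0.23 (Pdia4) in MyD88-null cells. In the degradation machinery, the mannosidase-like Edem1 gave 0.06 and -0.29, the ubiquitin ligase Syvn1 0.13 and 0.08, and its partner Sel1l 0.21 and 0.08. None of these 8 genes separated treated from control arrays in either genotype. Dimmer probes differed in direction for some. Those of Edem1 gave -0.06 and -0.14 in C57BL/6 and -0.32 and 0.26 in MyD88-null cells. For Sel1l they gave 0.13 and 0.81, then -0.32 and 1.04. For Canx they gave 0.30 and -0.08, then 0.01 and -0.14. For Pdia6 they gave 0.04, -0.04 and 0.11, then -0.18, 0.20 and -0.57.

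The sensors differed in direction. Eif2ak3, encoding PERK, had levels of 0.46, 0.22 and 0.14 in C57BL/6 controls and -0.14, -0.47 and -0.08 in treated cells, without overlap. The MyD88-null values were 0.49, 0.62 and 0.88 against -0.18, -0.49 and 0.65. The treated sample was lower in all 6 pairs, as for 12% of all genes. The differences of -0.51 (SE 0.286) and -0.67 (SE 0.286) did not pass (adjusted p = 0.893 and 0.547, limma).

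Xbp1 had levels of 1.91, 1.68 and 1.14 in C57BL/6 controls and 1.92, 1.76 and 1.43 with apoA-I, while MyD88-null controls, at 2.00, 1.99 and 1.45, stood against treated samples at 0.75, 1.57 and 1.25. The treated sample was higher in every C57BL/6 experiment and lower in every MyD88-null experiment, the lowest array being MyD88-null apoA-I replicate 1. In C57BL/6 experiment 1 the difference was only 0.0045. The changes were 0.12 (SE 0.293) and -0.62 (SE 0.293), neither past the threshold. Atf6 gave 0.42 (SE 0.196) in C57BL/6, where its groups did not overlap, and 0.08 (SE 0.196) in MyD88-null cells. Ern1, encoding IRE1, gave 0.18 and 0.45 (SE 0.281 each), and its MyD88-null groups did not overlap.

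Counted by overlap rather than by the test, treated arrays lay wholly above controls for 6 of the 34 genes in C57BL/6 (Nupr1, Chac1, Atf4, Herpud1, Manf and Atf6) and wholly below for 1 (Eif2ak3), against 6.76% and 6.35% of all genes. In MyD88-null cells they lay above for 6 (Nupr1, Chac1, Mthfd2, Sesn2, Trib3 and Ern1) and below for 0, against 6.3% and 5.32% of all genes. Nupr1 and Chac1 were the genes that separated in both.

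Slides and scan days were shared unevenly between groups. Within slides or scan days that held both control and treated arrays of a genotype, the change of Nupr1 was 1.57 to 2.01 in C57BL/6 and 1.76 to 2.85 in MyD88-null cells, and that of Chac1 1.34 to 1.63 and 1.43 to 1.63. The ATF4-branch median was 0.41 to 0.60 in C57BL/6. In MyD88-null cells it was 0.44 on scan day 3, 0.55 on scan day 1 and -0.02 on scan day 2. Over all genes the median was -0.11 on scan day 1 and 0.15 on scan day 2. Scan day 1 set MyD88-null apoA-I replicate 2, a sample of conflicting description, against control replicate 1. Scan day 2 set apoA-I replicate 1 against control replicate 2. Both pairs joined samples of different experiments, while the scan day 3 pair came from experiment 3.

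Markers of other cells were set beside the treatment, and none passed without the block. All 7 mesothelial and fibroblast markers were positive in both responses (medians 0.18 and 0.30). Summed levels are the log2 of the summed intensities of a cell type's markers, so the brightest marker weighs most. For these markers they were 5.13 to 6.85 in C57BL/6 controls and 5.44 to 6.84 with apoA-I. In MyD88-null cells they were 5.12 to 7.14 and 5.25 to 6.88. The 4 measured dendritic cell markers had medians of 0.57 and 0.76; their summed levels overlapped between control and treated groups (-0.08 to 1.63 against 0.48 to 1.64, and -0.54 to 1.19 against 0.22 to 1.80), and no array had Clec9a well above background. Of 6 T cell markers 5 were positive in each response (medians 0.25 and 0.45), with summed levels of -0.068 to 1.06 against 0.30 to 1.26 in C57BL/6 and -0.076 to 1.06 against 0.50 to 1.63 in MyD88-null cells. The 5 measured plasma cell markers and the 5 mast cell markers were positive for 5 of 5 in C57BL/6 and 4 of 5 in MyD88-null cells (medians 0.15 and 0.12, and 0.24 and 0.13). Of 6 B cell markers 2 were positive in C57BL/6 and 3 in MyD88-null cells (medians -0.07 and 0.05). The 4 measured neutrophil markers had medians of 0.03 and 0.11. The 1 measured eosinophil marker gave -0.17 and -0.29. Of the 8 macrophage markers 5 were positive in C57BL/6 and 4 in MyD88-null cells (medians 0.12 and -0.03). With the experiment as a block, 1 of them, Cd14, was called higher in C57BL/6 (1.61, SE 0.389, adjusted p = 0.131, and 0.0151 with the block, limma). In MyD88-null cells the block called the dendritic marker Zbtb46 (2.19, SE 0.754, adjusted p = 0.362; 0.0240 with the block, limma) and the T cell marker Lck (0.84, SE 0.283, adjusted p = 0.345; 0.0214 with the block, limma). The part of these markers in the stress gene values was not tested. In bulk RNA, fewer cells of a type and less RNA per cell cannot be told apart.

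The genotypes were also compared directly, as MyD88-null minus C57BL/6. In controls 0 of the 34 genes passed (0.0179% of all genes were called higher and 0.0777% lower by limma), and with the experiment as a block 0 passed as well, a fit that called 0.591% of all genes. At an unadjusted p under 0.05, which 2.35% of all genes reached in the lower direction and 1.17% in the higher, 4 genes were lower and 0 higher: Chac1 (-0.59, SE 0.244), Nupr1 (-0.61, SE 0.254), Trib3 (-0.45, SE 0.177) and Herpud1 (-0.85, SE 0.345). All had an adjusted p of 1 (limma).

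The ATF4 branch lay lower in the MyD88-null controls for 13 of its 14 genes, Ddit3 being the exception at 0.36 (SE 0.225). The median was -0.36, beside 0.02 over all genes, and in the experiments it was -0.16, -0.40 and -0.42. Arrays did not overlap for 5 genes lower in MyD88-null controls (Nupr1, Chac1, Trib3, Atf4 and Herpud1) and 2 higher (Eif2ak3 and Atf6), against 3.5% and 6.83% of all genes. The chaperone branch had a median of -0.09, with 9 of 16 genes negative.

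With apoA-I in both genotypes, 0 of the 34 genes passed (0.0179% of all genes called higher, 0.0478% lower by limma; 1 of the 34, Ddit4, at an unadjusted p under 0.05, with 1.74% of all genes lower and 2.17% higher at that level). With the block 0 of the 34 passed, as did 0.227% of all genes. The ATF4-branch median was -0.38, beside 0.07 over all genes, with 12 of 14 genes negative. Ddit4 gave the widest gap, -1.37 (SE 0.477), from levels of 2.21, 3.58 and 3.24 in C57BL/6 and 1.69, 2.19 and 1.02 in MyD88-null cells. Ddit4 and Chac1 were wholly lower in MyD88-null arrays, and 0 genes wholly higher, against 2.42% and 3.21% of all genes.

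Of the 14 ATF4-branch genes, 11 were lower in all 3 experiments in MyD88-null controls and 1 higher, against 18.6% and 24.7% of all genes. With apoA-I 10 were lower and 0 higher, against 13.8% and 21.2% of all genes. Taking both genotype comparisons, 11 of the 34 genes were lower in the MyD88-null sample of every experiment with and without apoA-I (Atf4, Ddit4, Chac1, Asns, Trib3, Ppp1r15a, Psat1, Mthfd2, Nupr1, Hspa5 and Herpud1), as were 5.33% of all genes, and 0 were higher in every experiment, as were 9.36%. The responses and the genotype differences are computed from the same arrays and are not independent of each other. Within slides and scan days holding both genotypes, the ATF4-branch median was -0.16 to -0.42 in controls and -0.16 to -0.50 with apoA-I. With treatment taken from the conflicting descriptions, the control median was -0.08 with 9 of 14 genes negative.

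Most markers of B, plasma and mast cells also had negative values in MyD88-null against C57BL/6 cells, none past the threshold without the block. In controls 5 of 6 B cell markers were negative (median -0.41), 4 of 5 measured plasma cell markers (median -0.67; Jchain -3.04, SE 0.591, adjusted p = 0.136; 0.0171 with the block, limma) and 4 of 5 mast cell markers (median -0.72). Jchain was well above background on 2 of the 3 MyD88-null control arrays. Summed levels, the log2 of summed intensities in which the brightest marker weighs most, were compared between C57BL/6 and MyD88-null controls. They were 3.29 to 3.74 and 2.87 to 3.55 for B cells, and 4.26 to 4.77 and 4.40 to 5.14 for plasma cells. For mast cells they were 2.10 to 2.44 and 1.14 to 2.02. The plasma cell marker Tnfrsf17 was not well above background on any array. With apoA-I the medians were -0.52, -0.79 and -0.71. Of the 4 measured dendritic cell markers 3 were negative in controls (median -0.63) and 2 with apoA-I (median -0.18). Of the 8 macrophage markers 6 were negative in each comparison (medians -0.29 and -0.24). With apoA-I, 3 of these 8 lay wholly lower in MyD88-null arrays, against 2.42% of all genes. So did 3 of 5 measured plasma cell markers, 3 of 5 mast cell markers and 1 of 6 B cell markers. In controls 0 macrophage markers lay wholly lower, and 2 each of the B, plasma and mast cell markers, against 3.5% of all genes. The part of these marker genes in the genotype values of the stress genes was not tested.

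Further genes of each pathway were taken from wider lists. Of 40 further ATF4 and integrated stress genes, 39 were measured, and 0 passed in either response. The median change was 0.14 in C57BL/6 and 0.05 in MyD88-null cells, beside -0.0018 and 0.052 over all genes. Of the 39, 26 were positive in C57BL/6 and 23 in MyD88-null cells. In MyD88-null cells the median of these further genes was thus no higher than that over all genes. With the experiment as a block 1 was called higher in each genotype, Gdf15, a stress-induced cytokine of the TGF-beta family, and 1 lower in MyD88-null cells, Atf3, a stress-induced repressor. The mean level of Gdf15 was 4.81 ± 0.601 (SD, n = 3) in control and 7.60 ± 0.694 (SD, n = 3) in treated C57BL/6 cells, a log2 change of 2.79 (SE 0.602, adjusted p = 0.0853; 0.0027 with the block, limma). In MyD88-null cells the change was 1.90 (SE 0.602, adjusted p = 0.294; 0.0144 with the block, limma). Atf3 gave -0.36 in C57BL/6 and -1.17 in MyD88-null cells (SE 0.270 each; in the latter adjusted p = 0.0913, and 0.0253 with the block, limma).

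Of 45 further genes of endoplasmic reticulum folding, translocation and degradation, all 45 were measured and 0 passed in either response; 25 were positive in C57BL/6 and 21 in MyD88-null cells. Their medians were 0.02 and -0.01. With the block 1 was called, Wfs1, a membrane protein of the endoplasmic reticulum, lower in MyD88-null cells (-0.91, SE 0.238, adjusted p = 0.154; 0.0348 with the block, limma). With or without the block, 0 genes of either list passed the test of a difference between the genotypes' responses. For MyD88-null minus C57BL/6, the further ATF4 genes had medians of -0.09 in controls and -0.20 with apoA-I. Of these 39 genes, 26 and 27 were negative. The further endoplasmic reticulum genes had medians of 0.01 and -0.02, with 21 and 24 of 45 negative.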

How the data were processed

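Deposited values were spot intensities from Agilent Feature Extraction (per the file headers, versions 9.5.1.1 or 9.5.3.1); the processed intensity is background-corrected and detrended by the authors' scanner software, and mean and local background intensities are raw. A deposited table of log10 values tracked the log10 intensity of each array (correlations 0.99257 to 0.99974); its scale was read from this match, its centring and normalization are unknown, and it served as an alternative. Its column medians were 1.8225 to 1.8676.

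Spots of each of the 41174 probes were averaged without those marked as outliers, log2-transformed, and set relative to the array's 75th percentile. A probe was kept if any group had it well above background on each of its arrays, and a gene was represented by its brightest probe. Probes were named through RefSeq (GRCm38.p6, names only), 8440 keeping the name in the file; probe positions are mm7, from the files. A 4-group model was fitted to 12 arrays and 16740 genes with limma 3.58.1 (R 4.3.3; 8 residual degrees of freedom), two-sided, with Benjamini-Hochberg adjustment over all genes and a threshold of 0.05; the script was tested on simulated data. The series text states that each experiment held all 4 groups, and the replicate number was taken to pair samples. After removing group means, same-numbered arrays correlated at 0.296 to 0.859. Differently numbered arrays of other groups correlated at -0.812 to 0.547, which overlaps. All replicate 3 arrays also shared scan day 3. The main fit and its SEs leave the pairing out, so spread between experiments remains in them. The fit with the replicate block is given where it changes a call. Intervals are limma's, without adjustment. The number of arrays limits the precision. All 34 genes are named; of the wider lists, those called in a response or the interaction, with or without the block. The genes, lists and branches were chosen with earlier results of these data known.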

Additional observations from a re-analysis of the deposited data

Results flagged for a closer look

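Xbp1 stood out because its apoA-I response had opposite signs in the genotypes, higher in all 3 C57BL/6 experiments and lower in all 3 MyD88-null experiments. The C57BL/6 changes were only 0.0045, 0.077 and 0.29 in experiments 1, 2 and 3. Of all genes, 24.1% were higher in all 3 C57BL/6 experiments and 21.9% lower in all 3 MyD88-null experiments. The share of genes with both was not counted. The difference of the responses was -0.746 (SE 0.414, 95% interval -1.67 to 0.17), and it did not pass (adjusted p = 1; 0.693 with the replicate block, limma; unadjusted p = 0.101 by limma). Without MyD88-null apoA-I replicate 1, the array with the lowest Xbp1 level, the difference was -0.52.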

How the results depend on the processing

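The alternatives were 14 other settings and the removal of each of 12 arrays; precision is limited by 3 arrays per group. In C57BL/6 cells 1 gene was called without the filter on dim probes and 1 when fitting only the groups compared, 0 without both samples of conflicting description, 0 with treatment from the descriptions, and 0 to 2 without single arrays; in MyD88-null cells 0 were called with only the groups compared, 1 without the conflicting samples, 0 with treatment from the descriptions, and 1 to 2 without single arrays. The replicate block gave 3 called in each genotype (570 and 674 of all genes, against 139 and 191) and changed no call beyond Herpud1 among the 34. The other comparisons kept 0 called throughout, in a design that called few genes.

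The ATF4-branch median in C57BL/6 was 0.43 with quantile normalization, 0.44 with treatment from the descriptions, and 0.35 to 0.68 without single arrays. In MyD88-null cells it was 0.38 with quantile normalization, 0.32 with normexp, 0.34 with the mean of a gene's probes and 0.47 from the deposited table. It was 0.33 with slide as a random block, 0.37 without the conflicting samples and 0.21 with treatment from the descriptions. Without single arrays it was 0.31 to 0.56. The MyD88-null median over all genes moved too, from -0.075 with quantile normalization to 0.12 with treatment from the descriptions. Without the filter on dim probes it was 0.42, and the ATF4-branch median of 0.41 was then no higher. The chaperone median in C57BL/6 was -0.088 with quantile normalization and -0.012 to 0.19 without single arrays, and in MyD88-null cells -0.12 to 0.11. The ATF4 minus chaperone difference was 0.32 and 0.11 (C57BL/6 and MyD88-null) with treatment from the descriptions, and 0.32 to 0.49 and 0.22 to 0.52 without single arrays. The causes were not tested.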

Other observations

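Amino acid transporters in the wider ATF4 list, singled out after their values were seen, gave the following. Slc7a11, the cystine transporter, had log2 changes with apoA-I of 1.67 in C57BL/6 and 1.45 in MyD88-null cells (adjusted p = 0.396 and 0.496, limma). Its partner chain Slc3a2 gave 0.73 and 0.42, and Slc7a5, which pairs with the same chain to carry large neutral amino acids, 0.49 and 0.57. The glutamine transporter Slc1a5 gave -0.02 and 0.05. Of the aminoacyl-tRNA synthetases, Aars gave 0.31 and 0.22 and Eprs 0.29 and -0.01. None passed.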
